A study of Mus musculus with 12 samples.

Results

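The 42 genes described here encode the machinery of the synapse: the presynaptic proteins that load, dock and fuse vesicles, the organizers that span the cleft, and the postsynaptic scaffolds. They were listed by name, with earlier results of these data known, and all 42 were found among the 53379 gene rows of the deposited tables, each under 1 identifier. Neurotransmitter is loaded into synaptic vesicles by transporters, vesicles are held at the active zone by large scaffold proteins and Rab3, and fusion is driven by SNARE proteins under the control of calcium sensors and complexins. Neurexins on the axon reach across the cleft to neuroligins and, through cerebellins, to the glutamate receptor relative GluD2, and scaffolds of the Dlg4, Homer and Shank families anchor receptors on the other side. In the cerebellum, granule neurons leave the external granule layer and form parallel fibre synapses on Purkinje cells, a contact for which Cbln1 is the best known organizer. The external granule layer holds dividing granule neuron precursors and, on its inner side, granule neurons that have just left the cycle.

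The libraries came from that layer, cut out by laser capture from the central cerebellar lobules of C57BL/6 mice on postnatal day 6. Knockout mice (KO) carried a conditional deletion of SnoN, the transcriptional repressor encoded by Skil that acts on SMAD proteins, and control littermates were wild type (WT). The labels name neither the Cre line nor the deleted exons, and they do not say whether each library is 1 animal, so the p-values speak only of how libraries differ, part of which may be technical. There were 6 KO and 6 WT libraries. The submitters marked KO4 and WT2 as outliers, and the comparison was made between KO2, KO3, KO5, KO6 and KO8 and WT1, WT3, WT5, WT6 and WT7. Values below are given in that order of libraries. The reads were not separated by strand in the library kit, and 16 of the 42 genes overlap an exon on the opposite strand: Snap47, Syt4, Doc2b, Syn1, Syn2, Syp, Sv2b, Slc32a1, Rab3a, Pclo, Unc13a, Nrxn2, Nrxn3, Nlgn1, Shank1 and Shank3. Counting without regard to strand sets reads in such a shared stretch aside as ambiguous. Counting by strand could give them to the other gene, and the setting used is not given. Ambiguous records were 6.8% to 8.1% of those placed uniquely. The title of KO2 says knockout while its genotype tag says wild type; it is kept here as labelled by its title.

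Gene counts summed to between 7520076 and 15083086 per library. Skil had 36.1, 36.7, 20.9, 30.1 and 29.9 CPM in the KO libraries, against 47.5, 57.8, 57.3, 38.5 and 48.5 CPM in the WT libraries, where CPM stands for reads per 1e+06 counted reads after TMM scaling. The groups did not overlap (log2 fold change -0.70, SE 0.15, adjusted p = 0.124 over 13442 genes in edgeR's quasi-likelihood test), and KO4 had 14.0 CPM and WT2 76.5 CPM. The counts cover the whole gene, and how much of it the deletion removes is not in the labels. Among markers of the layer, the precursor factor Atoh1 averaged 95.8 ± 10.8 CPM in KO and 92.2 ± 16.7 CPM in WT (SD, n = 5 each). Of 12 markers of differentiating granule neurons 3 had higher and 2 had lower means in KO with an unadjusted p under 0.05 (median log2 fold change -0.07), beside 11.8% higher and 9.97% lower of all genes tested. Neurod1 of that list averaged 3627.8 ± 1110.0 CPM in KO and 2582.1 ± 750.5 CPM in WT, and Cntn2 averaged 242.4 ± 62.5 CPM in KO and 312.6 ± 32.8 CPM in WT. Gabra6, a marker of mature granule neurons, was between 0 and 0.584 CPM in KO and at 0 in the 5 WT libraries. The KO and WT libraries also differed in base composition. The GC content of the transcripts, weighted by counts, was 47.98% to 49.4% in KO and 48.9% to 49.6% in WT, with 49.3% in KO4 and 47.3% in WT2.

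RefSeq (GRCm38.p6) held 46 promoter windows for 31 of the 42 genes, each reaching from 250 bases before to 50 bases after a transcript start. The windows below stop at the start site and belong to 2 genes with lower means in KO, Cplx1 and Syn1, and 2 with higher means, Homer1 and Nlgn1, so that both directions can be seen beside the results. Capitals mark letters of a motif searched on both strands: TTCAGCACC, the left arm of the RE1 element through which REST silences neuronal genes outside neurons, GGACAGC, its right arm, CAGCTG and CAGATG, E-boxes bound by basic helix-loop-helix factors such as Atoh1 and Neurod1, and CAGAC, one arm of a SMAD site, with GTCTAGAC as its full palindrome.
Cplx1, chr5:108550028-108550277, minus strand: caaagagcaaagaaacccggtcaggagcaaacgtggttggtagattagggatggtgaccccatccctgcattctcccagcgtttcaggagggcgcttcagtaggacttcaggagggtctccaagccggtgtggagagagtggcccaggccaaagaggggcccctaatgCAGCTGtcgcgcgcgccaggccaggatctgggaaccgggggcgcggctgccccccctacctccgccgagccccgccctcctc
Homer1, chr13:93303507-93303756, plus strand: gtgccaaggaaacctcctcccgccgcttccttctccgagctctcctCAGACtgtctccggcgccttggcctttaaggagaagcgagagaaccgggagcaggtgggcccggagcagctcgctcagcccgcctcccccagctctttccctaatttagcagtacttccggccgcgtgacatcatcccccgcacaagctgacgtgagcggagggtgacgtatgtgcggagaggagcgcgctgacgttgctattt
Syn1, chrX:20920919-20921168, minus strand: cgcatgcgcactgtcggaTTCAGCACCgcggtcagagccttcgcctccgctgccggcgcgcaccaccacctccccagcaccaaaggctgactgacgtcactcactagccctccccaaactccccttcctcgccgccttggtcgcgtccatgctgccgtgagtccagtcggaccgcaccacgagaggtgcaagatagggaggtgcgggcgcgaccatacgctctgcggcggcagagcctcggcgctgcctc
Nlgn1, chr3:26153987-26154236, minus strand: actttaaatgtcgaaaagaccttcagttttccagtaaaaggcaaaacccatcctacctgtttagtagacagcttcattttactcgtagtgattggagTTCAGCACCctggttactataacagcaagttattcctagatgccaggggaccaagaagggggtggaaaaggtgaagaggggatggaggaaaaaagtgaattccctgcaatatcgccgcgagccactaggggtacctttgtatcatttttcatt
The RE1 left arm stood in windows of Syn1, Unc13a and Nlgn1, 6.52% of the 46 windows, beside 0.371% of all 32851 windows of this length, and the right arm in 4.35% beside 6.56%. The printed Nlgn1 window belongs to a start inside the gene. Another Nlgn1 window, chr3:26331910-26332159, not printed here, lies nearer the annotated start of the gene. Its 250 bases before the start hold CAGAC at 2 places and no RE1 arm. CAGCTG was found in 21.7% of these windows, among them those of Cplx1, Stx1a, Syt1 and Rab3a and a second Homer1 window not printed here, beside 16.3% of all. CAGATG was found in 6.52% beside 17.2%, CAGAC in 41.3% beside 49.6%, and GTCTAGAC in none of the 46 beside 0.213% of all. A match is a run of letters and not a measured binding site.

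Most of these genes were already transcribed in the layer. Levels between genes are compared per length, as mean CPM per kb of annotated exon. In WT the highest was Cbln1, the secreted organizer of parallel fibre synapses (70.2 in KO and 89.4 in WT), followed by Syt11, a synaptotagmin that does not bind calcium (86.0 in KO and 77.1 in WT) and was the highest in KO, the vesicle GTPase Rab3a (46.9 in KO and 57.5 in WT), the fusion clamp Cplx1 (33.9 in KO and 46.0 in WT) and the vesicle SNARE Vamp2 (32.2 in KO and 32.1 in WT). At the other end were Sv2c (0.0685 in KO and 0.0385 in WT) and Vamp1, the other synaptobrevin (0.147 in KO and 0.116 in WT), with Cbln3 (0.143 in KO and 0.198 in WT) and Cbln2 (0.18 in KO and 0.24 in WT) next to them. Cbln3, which is made by maturing granule neurons and pairs with Cbln1, had 5 to 25 reads per library. Sv2c, Cbln2 and Cbln3 did not pass the filter on low counts, so 39 genes were tested. The large active zone scaffolds were low per length (1.31 in KO and 0.986 in WT for Pclo, 0.612 in KO and 0.706 in WT for Bsn), as were the Shank proteins, from 0.523 in KO and 0.391 in WT for Shank1 to 1.03 in KO and 0.986 in WT for Shank3.

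**Figure D1:**
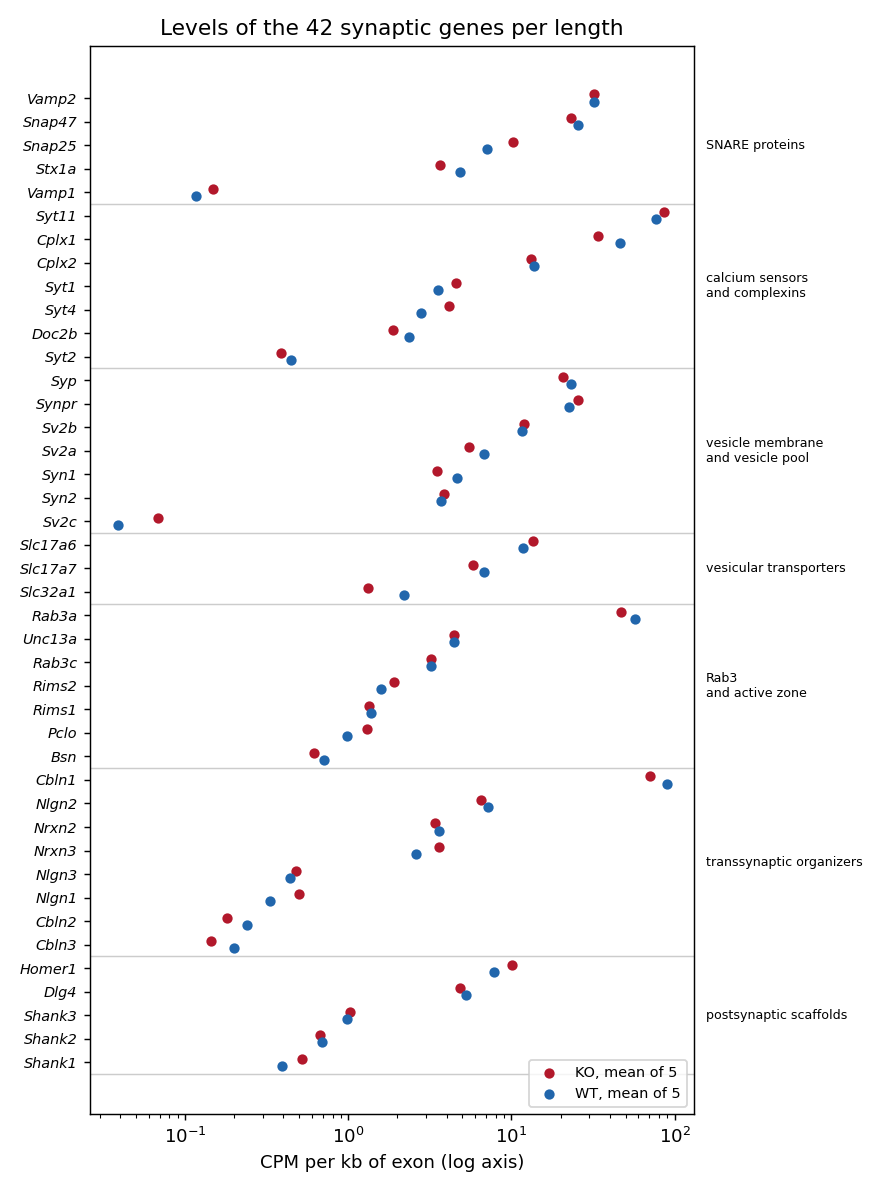
Mean CPM per kb of exon (log axis) of the 42 synaptic genes in 5 KO (red) and 5 WT (blue) libraries, grouped by role and ordered by the WT level. Cbln1 (89.4 in WT) and Syt11 (86.0 in KO) are highest, and Sv2c and Vamp1 are lowest in WT.

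With p-values adjusted over all genes, 0 of the 39 synaptic genes passed the threshold of 0.05 by edgeR, beside 0.0223% of the 13442 genes tested (3 genes). At an unadjusted p under 0.05, 5 of 39 were higher in KO (12.8%, beside 11.8% of all genes tested) and 5 were lower (12.8%, beside 9.97%). The median log2 fold change was -0.002 over the 39 genes and 0.001 over all genes, with 19 genes above 0 and 20 below. The 5 with higher means in KO were Snap25, Syt1, Syt4, Pclo and Homer1, and the 5 with lower means were Cplx1, Sv2a, Slc32a1, Rab3a and Cbln1. These shares lie near those of the transcriptome. The count of 5 higher became 2 without KO3, 3 without KO2 and 2 without WT7, and the count of 5 lower became 3 without WT1, KO3 or KO8 and 8 without KO5. The matching shares of all genes are not given for these fits, so these changes cannot be told apart from changes across the transcriptome. With all 12 libraries 1 of 39 was higher, Snap25 (beside 1.91% of 13318 genes), and 1 lower, Slc32a1 (beside 1.55%). The exact permutation p was under 0.05 for 8 of the 39 genes (20.5%, beside 15.2% of all genes) and for 3 with all 12 libraries (7.69%, beside 4.15%). DESeq2 gave 33 of the 42 genes an adjusted p and called Snap25 as higher (adjusted p = 0.0147; 1 of 33, beside 2.43% of 9973 genes) and Cbln1 (0.0445) and Cplx1 (0.0494) as lower (2 of 33, beside 2.29%). Without a filter beyond a count of 1, edgeR called Snap25 and Syt4 as higher (2 of 42, beside 2.29% of 27688 genes) and Cplx1 as lower (1 of 42, beside 1.2%).

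**Figure D2:**
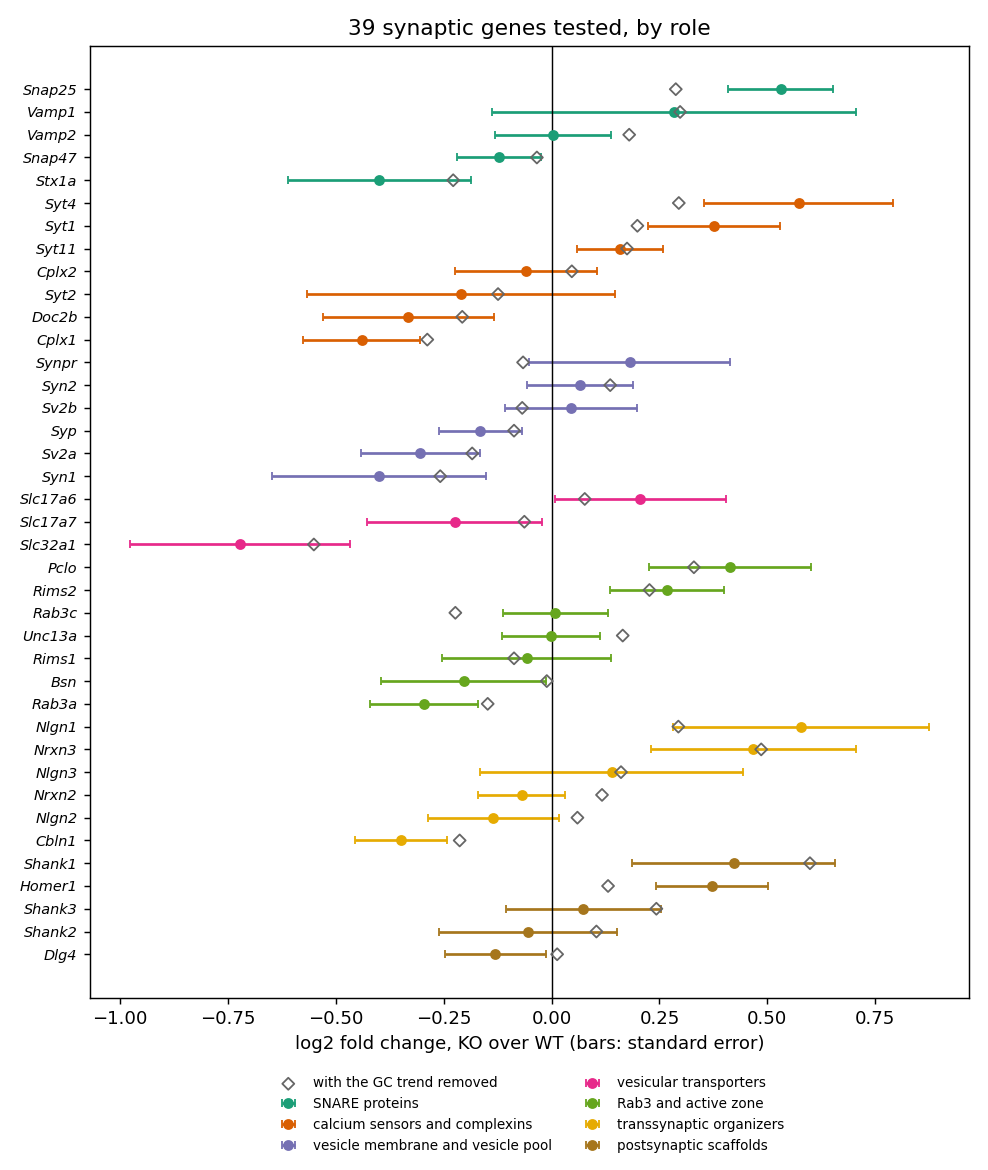
Log2 fold change of KO over WT for the 39 genes tested, with the standard error as a bar, grouped by role (colours); open diamonds give the same after removal of each library's trend on GC content. Each role has genes on both sides of 0; Nlgn1 and Syt4 lie furthest right and Slc32a1 furthest left, at -0.72.

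Among the SNARE proteins, Snap25, the plasma membrane SNARE that supplies a pair of helices to the fusion complex, had the smallest p of all 42 genes. It had 77.4, 68.6, 56.8, 62.1 and 81.4 CPM in the KO libraries, against 48.5, 49.3, 47.9, 39.1 and 54.5 CPM in the WT libraries. Every KO library lay above every WT library, the narrowest gap being between KO5 and WT7. Its mean was 69.3 ± 10.3 CPM in KO and 47.9 ± 5.56 CPM in WT (SD, n = 5 each). Across all genes, edgeR put the log2 fold change at 0.53 (SE 0.12, adjusted p = 0.124). The two-sided exact permutation p was 0.00794, the smallest possible here. It was the 1 gene of 39 in which KO lay wholly higher (2.56%, beside 1.04% of all genes tested), and none of the 39 lay wholly lower (beside 1.31%). KO4 and WT2 stood the other way round, with 49.0 CPM in KO4 and 63.2 CPM in WT2, and a fit of all 12 libraries gave a log2 fold change of 0.39 (unadjusted p = 0.015). With the GC trend removed it was 0.29 (unadjusted p = 0.00776). The partner SNARE Stx1a, syntaxin 1A, had 9.25, 4.86, 12, 10.7 and 11.6 CPM in the KO libraries, against 13.9, 11.8, 9.81, 15.3 and 13.2 CPM in the WT libraries. KO2 and KO3 lay below all WT libraries, KO3 furthest, and the other 3 KO libraries lay within the WT range (log2 fold change -0.40, SE 0.21, adjusted p = 0.275). Snap47, a widely expressed relative of Snap25, had 63.6, 59.1, 67.7, 57.4 and 61.4 CPM in the KO libraries, against 64.4, 63.6, 74.2, 70.3 and 64.2 CPM in the WT libraries, so that KO3, KO6 and KO8 were below the WT range and KO2 and KO5 were at or in it (log2 fold change -0.12, SE 0.10, adjusted p = 0.468).

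Synaptobrevin 2, Vamp2, had 146.6, 93.7, 99.7, 130.2 and 142.3 CPM in the KO libraries, against 130.3, 144.4, 125.4, 108.0 and 103.6 CPM in the WT libraries. The means were 122.5 ± 24.4 CPM in KO and 122.3 ± 16.7 CPM in WT, with a 95% interval of the log2 fold change of -0.28 to 0.29. Vamp1 had 1.56, 1.31, 1.6, 2.06 and 0.935 CPM in the KO libraries, against 1.45, 1.35, 1.08, 0.247 and 1.77 CPM in the WT libraries, on 2 to 27 reads per library, and its interval was -0.60 to 1.17, so a difference of the size seen for Snap25 was not detectable at this depth.

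Calcium sensors and complexins went both ways. Cplx1, complexin 1, which clamps and then assists SNARE complexes, had 77.2, 58.9, 95.2, 83.6 and 56.3 CPM in the KO libraries, against 110.9, 87.5, 106.1, 94.2 and 104.3 CPM in the WT libraries. It was lower than every WT library in 4 of the 5 KO libraries, with KO5 inside the WT range (log2 fold change -0.44, SE 0.14, adjusted p = 0.131; exact permutation p = 0.0238). Its relative Cplx2 had 70.7, 47.1, 91.5, 67.0 and 50.2 CPM in the KO libraries, against 61.3, 55.7, 62.9, 79.3 and 80.9 CPM in the WT libraries, with wide overlap (log2 fold change -0.06, SE 0.16, adjusted p = 0.855). The sensor of fast release, Syt1, had 47.8, 48.3, 28.7, 27.6 and 39.1 CPM in the KO libraries, against 30, 29.1, 31.8, 29.3 and 27.4 CPM in the WT libraries. The WT values were tightly grouped, KO2, KO3 and KO8 lay above them, and KO5 and KO6 lay within them (log2 fold change 0.38, SE 0.15, adjusted p = 0.175). Syt4, a synaptotagmin that responds to neuronal activity, had 18.8, 23.8, 16.5, 8.94 and 12.9 CPM in the KO libraries, against 13.2, 8.97, 12.3, 11.3 and 8.63 CPM in the WT libraries, with KO2, KO3 and KO5 above all WT libraries (log2 fold change 0.57, SE 0.22, adjusted p = 0.162). Syt11, the most abundant synaptotagmin here, had 487.8, 426.7, 412.9, 408.5 and 502.2 CPM in the KO libraries, against 367.8, 439.1, 439.0, 389.5 and 371.8 CPM in the WT libraries (interval of the log2 fold change -0.05 to 0.37). Doc2b, a high affinity calcium sensor of spontaneous release, averaged 8.16 ± 2.40 CPM in KO and 10.3 ± 1.5 CPM in WT (SD, n = 5 each), and Syt2, a second fast sensor, averaged 2.96 ± 1.38 CPM in KO and 3.41 ± 1.42 CPM in WT (SD, n = 5 each). With the GC trend removed the log2 fold changes were -0.29 for Cplx1, 0.20 for Syt1 and 0.29 for Syt4. With all 12 libraries they were -0.28, 0.00 and 0.37. For Cplx1, Syt1 and Syt4 the marked pair stood the other way round, with Syt1 at 23.4 CPM in KO4 and 67.6 CPM in WT2.

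**Figure D3:**
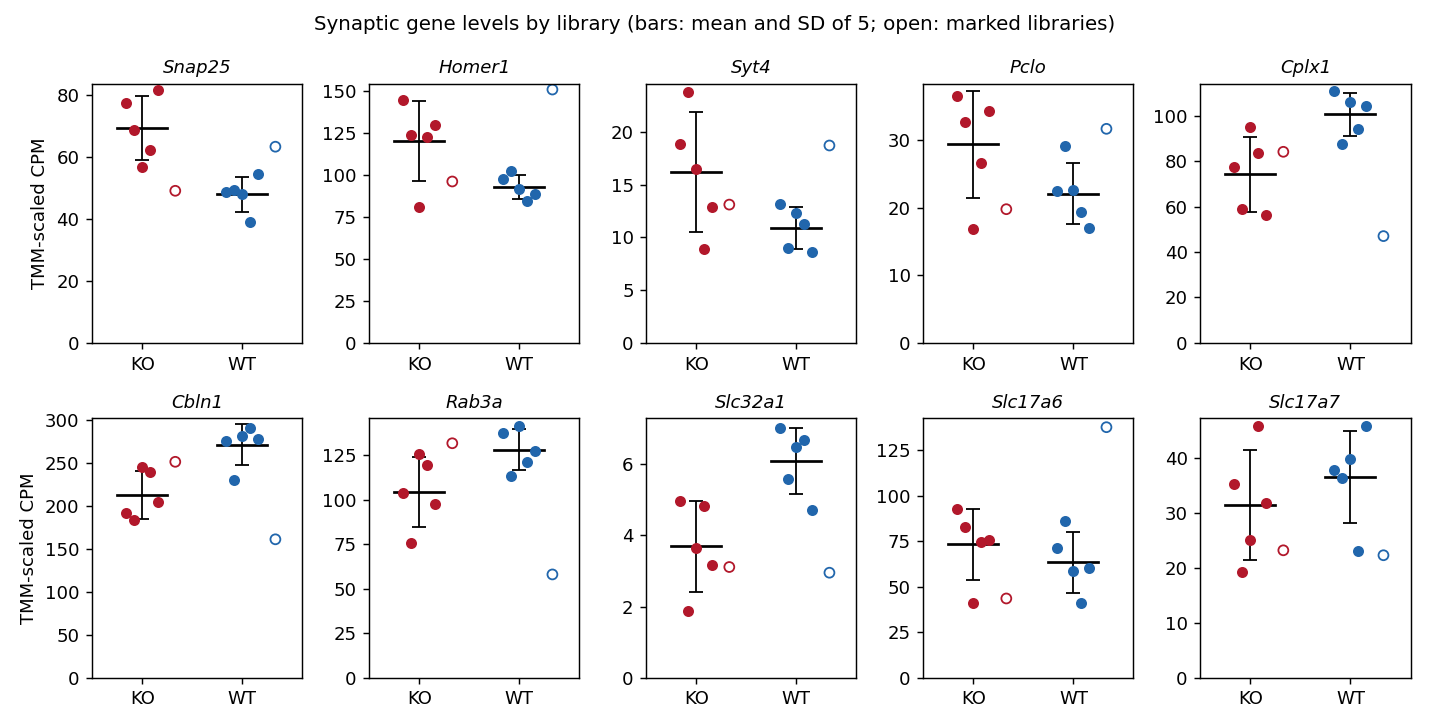
TMM-scaled CPM of 10 synaptic genes in each library, KO (red) left of WT (blue); bars are the mean and SD of 5 libraries and open circles the marked libraries KO4 and WT2. The 5 filled KO points of Snap25 lie above the 5 filled WT points, while for the other 9 genes the groups overlap.

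Proteins of the vesicle membrane and the reserve pool had 6 tested genes, with log2 fold changes from -0.40 to 0.18. Sv2a, a vesicle glycoprotein, had 26.5, 21.9, 29.7, 25.8 and 23.0 CPM in the KO libraries, against 37.0, 25.1, 32.0, 26.2 and 35.9 CPM in the WT libraries. KO3 and KO8 lay below all WT libraries and the other 3 KO libraries within their range (log2 fold change -0.30, SE 0.14, adjusted p = 0.213). Synaptophysin, Syp, the classic vesicle membrane marker, had 111.5, 94.2, 115.5, 104.4 and 111.5 CPM in the KO libraries, against 132.2, 120.5, 118.5, 123.0 and 108.6 CPM in the WT libraries, with KO2, KO5 and KO8 inside the WT range (log2 fold change -0.17, SE 0.10, adjusted p = 0.318). Syn1, which tethers vesicles to actin, had 10.2, 6.54, 20.5, 11.4 and 9.28 CPM in the KO libraries, against 15.9, 9.74, 17.3, 14.6 and 18.8 CPM in the WT libraries. KO5 had the highest value of the 10 libraries, and KO3 and KO8 the lowest ones (log2 fold change -0.40, SE 0.25, adjusted p = 0.351). Syn2 had 32.4, 23.0, 25.5, 26.1 and 29.0 CPM in the KO libraries, against 23.8, 24.4, 27.6, 26.7 and 27.6 CPM in the WT libraries (interval -0.19 to 0.32). Synpr, the synaptophysin relative synaptoporin, ranged from 114.8 to 328.1 CPM within KO and from 140.6 to 279.5 CPM within WT. Sv2b averaged 100.4 ± 26 CPM in KO and 97.3 ± 11.6 CPM in WT (SD, n = 5 each). Sv2c, below the filter, reached at most 1.49 CPM in the 10 libraries.

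The vesicular transporters mark the transmitter of a neuron. Slc17a6, the glutamate transporter VGLUT2 that young granule neurons use, had 92.6, 82.5, 40.8, 74.8 and 75.4 CPM in the KO libraries, against 71.2, 86.1, 58.6, 41.0 and 60.2 CPM in the WT libraries. KO5 and WT6 were the low libraries of their groups, and the groups overlapped (log2 fold change 0.21, SE 0.20, adjusted p = 0.557). Slc17a7, VGLUT1, which takes over as granule neurons mature, had 35.2, 19.3, 25.1, 45.8 and 31.9 CPM in the KO libraries, against 37.8, 36.4, 39.9, 23.1 and 45.9 CPM in the WT libraries. KO3 was the lowest library and the other KO libraries lay within the WT range (log2 fold change -0.22, SE 0.20, adjusted p = 0.53). Slc32a1, the GABA and glycine transporter of inhibitory neurons, had 4.96, 1.87, 3.65, 4.83 and 3.17 CPM in the KO libraries, against 7.01, 5.59, 6.48, 6.68 and 4.71 CPM in the WT libraries, on 20 to 97 reads per library. KO3, KO5 and KO8 lay below every WT library, and KO2 and KO6 lay just above the lowest WT value (log2 fold change -0.72, SE 0.26, adjusted p = 0.148; exact permutation p = 0.0238). It kept a negative fold change with the GC trend removed (-0.55) and in all 12 libraries (-0.64), which add 3.11 CPM in KO4 and 2.95 CPM in WT2. Other markers of GABAergic neurons had higher means in KO: Gad1, the main GABA synthesis enzyme, averaged 16.6 ± 8.32 CPM in KO and 9.19 ± 2.69 CPM in WT (SD, n = 5 each; adjusted p = 0.158), and Gad2 averaged 3.24 ± 1.0 CPM in KO and 1.89 ± 0.817 CPM in WT (adjusted p = 0.209). Pax2, which marks young interneurons, averaged 0.262 ± 0.236 CPM in KO and 0.507 ± 0.432 CPM in WT.

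At the active zone, Rab3a, which recruits vesicles to RIM proteins, had 103.8, 75.7, 125.5, 119.3 and 97.4 CPM in the KO libraries, against 137.4, 113.2, 141.5, 121.1 and 127.1 CPM in the WT libraries. KO2, KO3 and KO8 were below all WT libraries and KO5 and KO6 within their range (log2 fold change -0.29, SE 0.12, adjusted p = 0.187). Pclo, the giant scaffold Piccolo, had 36.5, 32.7, 16.8, 26.7 and 34.4 CPM in the KO libraries, against 22.5, 29.1, 22.6, 19.4 and 17.0 CPM in the WT libraries. Its KO values spanned the WT range, with KO2, KO3 and KO8 above it and KO5 under it (log2 fold change 0.41, SE 0.19, adjusted p = 0.214). Rims2, a RIM scaffold, had 23.7, 19.5, 19.0, 18.4 and 18.2 CPM in the KO libraries, against 14.5, 16.4, 18.7, 15.6 and 16.8 CPM in the WT libraries, with KO2, KO3 and KO5 above all WT libraries and KO6 and KO8 below the highest WT library (log2 fold change 0.27, SE 0.13, adjusted p = 0.248). For the remaining active zone genes the 95% intervals of the log2 fold change included 0, at -0.24 to 0.24 for the priming factor Unc13a, -0.25 to 0.27 for Rab3c, -0.47 to 0.35 for Rims1 and -0.61 to 0.20 for Bassoon, Bsn, whose log2 fold change was -0.20.

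Among the transsynaptic organizers, Cbln1 had 192.3, 183.3, 245.8, 239.4 and 204.6 CPM in the KO libraries, against 276.0, 229.8, 281.7, 291.3 and 278.2 CPM in the WT libraries. KO2, KO3 and KO8 lay below all WT libraries, and KO5 and KO6 lay above the lowest WT library, WT3. Its mean was 213.1 ± 28.1 CPM in KO and 271.4 ± 24 CPM in WT (SD, n = 5 each), and the fold change did not pass (log2 fold change -0.35, SE 0.11, adjusted p = 0.131; exact permutation p = 0.0238). The log2 fold change was -0.21 with the GC trend removed and -0.21 with all 12 libraries, where the marked pair stood the other way round, with 251.5 CPM in KO4 and 161.2 CPM in WT2. Its relatives were near the limit of detection. Cbln2 had 0.292, 0.654, 0.535, 0.617 and 0.504 CPM in the KO libraries, against 0.217, 0.289, 0, 0.619 and 2.35 CPM in the WT libraries. Cbln3 had 0.487, 0.467, 0.535, 1.34 and 0.648 CPM in the KO libraries, against 0.434, 0.579, 1.17, 0.99 and 1.63 CPM in the WT libraries, and for both genes every KO library lay within the WT range. The cell adhesion gene Nrxn3, a presynaptic neurexin with a very long gene, had 62.8, 48.6, 32.2, 24.8 and 58.4 CPM in the KO libraries, against 37.1, 38.7, 40.9, 20 and 27.1 CPM in the WT libraries. KO2, KO3 and KO8 were above the WT range (log2 fold change 0.47, SE 0.24, adjusted p = 0.26). The same 3 libraries were above it for Nlgn1, the neuroligin of excitatory synapses, which had 11.8, 6.44, 2.85, 4.93 and 7.27 CPM in the KO libraries, against 3.90, 5.30, 5.40, 3.46 and 4.19 CPM in the WT libraries, while KO5 lay below it (log2 fold change 0.58, SE 0.30, adjusted p = 0.26). Nrxn2 (-0.28 to 0.14), Nlgn2 of inhibitory synapses (-0.46 to 0.18) and Nlgn3 (-0.50 to 0.78) had 95% intervals of the log2 fold change that included 0.

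Of the postsynaptic scaffolds, Homer1, which links glutamate receptors to Shank proteins and to calcium stores, had 144.9, 123.8, 80.7, 122.7 and 130 CPM in the KO libraries, against 97.8, 102.5, 91.8, 84.6 and 88.9 CPM in the WT libraries. It was above every WT library in 4 KO libraries and below them all in KO5 (log2 fold change 0.37, SE 0.13, adjusted p = 0.146). With the GC trend removed its log2 fold change was 0.13. Shank1, a master scaffold of excitatory synapses, had 4.77, 6.16, 5.53, 6.06 and 4.97 CPM in the KO libraries, against 5.78, 3.86, 3.78, 4.58 and 2.55 CPM in the WT libraries; every KO library was above every WT library but WT1, and KO3 and KO6 were above that one too (log2 fold change 0.42, SE 0.23, adjusted p = 0.298). Its log2 fold change was larger with the GC trend removed, at 0.60 (unadjusted p = 0.0186). Dlg4, the scaffold PSD-95, had 70.5, 49.2, 61.0, 62.3 and 75.7 CPM in the KO libraries, against 71.0, 78.4, 63.4, 71.2 and 65.1 CPM in the WT libraries. KO3, KO5 and KO6 lay below the WT range and KO2 and KO8 within it (log2 fold change -0.13, SE 0.12, adjusted p = 0.53). Shank2 and Shank3 had intervals of -0.49 to 0.38 and -0.30 to 0.45.

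The direction of these genes followed the GC content of their transcripts. Of 16 tested genes under 50% GC, 15 had a positive log2 fold change (median 0.28), and of 23 at or above 50%, 19 had a negative one (median -0.17). The same split over all genes tested gave 4802 positive of 6870 under 50% (median 0.14) and 4632 negative of 6562 at or above it (median -0.14). Across the 39 genes, Spearman's rho between GC content and log2 fold change was -0.65, beside -0.50 across 13432 genes; genes share libraries and are not independent, so no p is given. Longer genes also had higher fold changes (rho 0.50 with gene span across the 39, beside 0.14 across all genes), and GC content and span were themselves related among the 39 (rho -0.42).

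**Figure D4:**
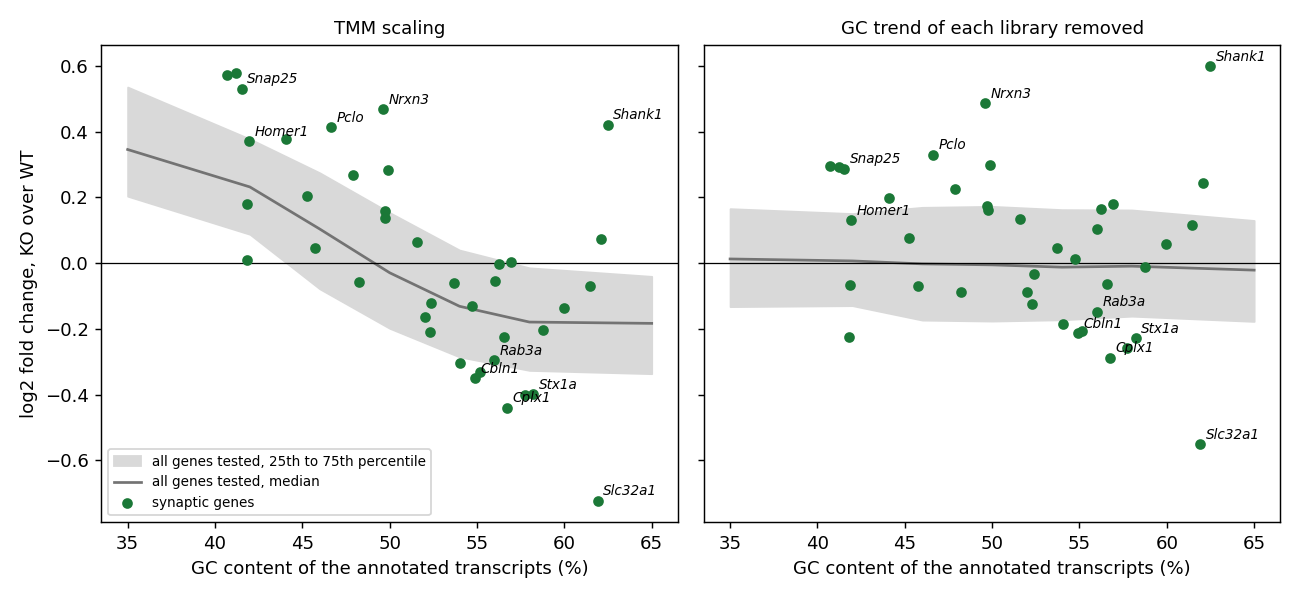
Log2 fold change of KO over WT against transcript GC content for the 39 genes (green), with the median and the 25th to 75th percentile of all genes tested in GC bins (grey); left, TMM scaling, and right, each library's GC trend removed. At left the median of all genes runs from 0.35 in the lowest bin to -0.18 in the highest and the synaptic genes lie along it; at right it runs from 0.01 to -0.02.

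The libraries differed in the same way. Relative to the mean of the 10 libraries, levels of the 39 genes were lower at high GC content in KO2 (rho -0.59), KO3 (-0.65) and KO8 (-0.50), near flat in KO6 (0.07), and higher at high GC content in KO5 (0.31) and in the 5 WT libraries (0.25 to 0.63). The marked WT2 had rho -0.61 and the marked KO4 0.13. The marked pair had the opposite order to the comparison for 35 of the 39 genes (89.7%), beside 73.2% of all genes tested. It also had the opposite order for all 10 of these genes with an unadjusted p under 0.05. The share among all genes under that threshold is not given here, so these 10 cannot be told apart from the transcriptome. With each library's GC trend removed, 2 of 39 genes were higher at an unadjusted p under 0.05, Snap25 and Shank1 (5.13%, beside 7.52% of all genes), and 3 were lower, Cplx1, Cbln1 and Slc32a1 (7.69%, beside 8.0%). None passed an adjusted p of 0.05, and the median was 0.06. The 16 AT-richer genes then had a median of 0.19, with 12 above 0, and the 23 others a median of -0.03.

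**Figure D5:**
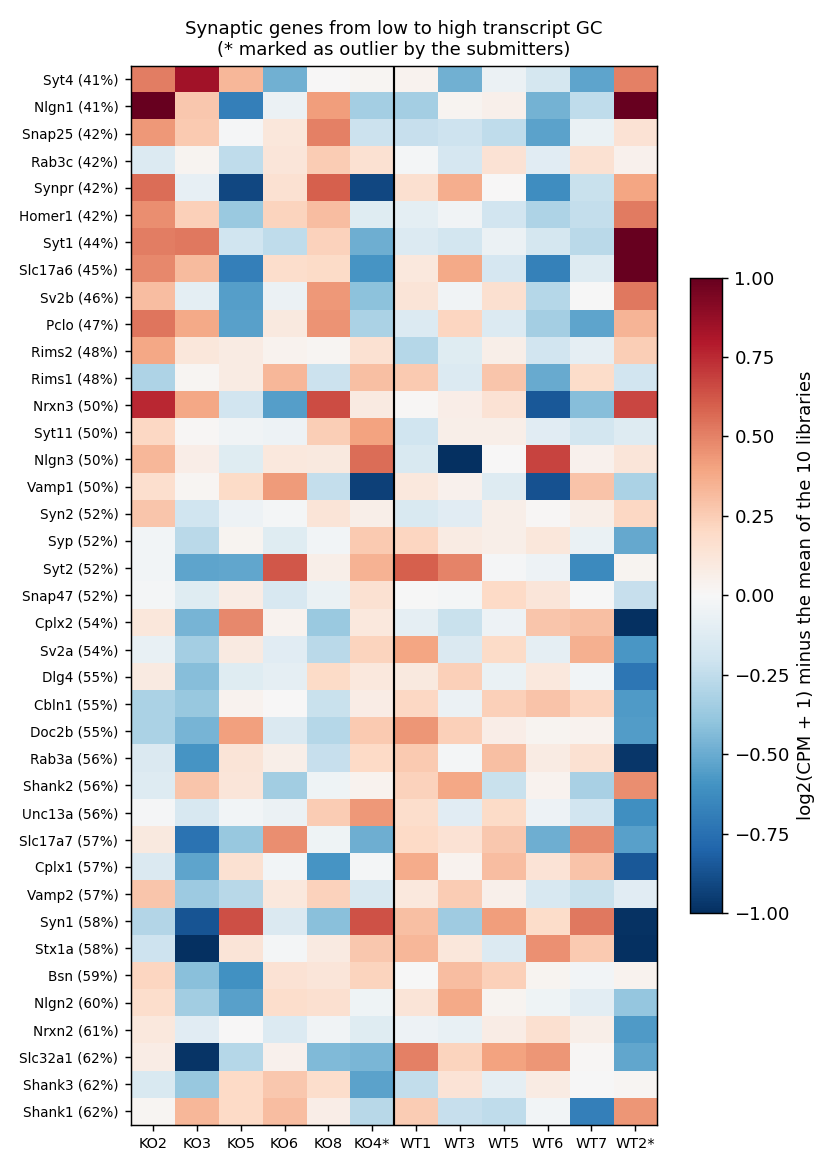
Log2(CPM + 1) of 39 synaptic genes (rows, from low to high transcript GC) in 12 libraries, KO left and WT right of the line, minus the mean of the 10 compared libraries; colours saturate at 1 and -1. KO2, KO3, KO8 and the marked WT2 are redder at the top and bluer at the bottom, and KO5 and WT6 the reverse.

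KO5 weighed on the calls. Without it 10 of 40 tested genes passed an adjusted p of 0.05: Snap25, Homer1, Pclo, Syt1 and Nlgn1 as higher (12.5%, beside 12.3% of 13562 genes) and Cplx1, Cbln1, Syn1, Rab3a and Doc2b as lower (12.5%, beside 10.6%). Their log2 fold changes ran from 0.47 for Syt1 to 0.77 for Nlgn1 on the higher side and from -0.37 for Rab3a to -0.71 for Syn1 on the lower. With KO5 left out and the GC trend removed, Pclo (log2 fold change 0.47, adjusted p = 0.0282) and Cplx1 (-0.33, adjusted p = 0.0427) passed, 1 of 40 in each direction, beside 5.86% of 13562 genes as higher and 5.73% as lower.

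The 5 further lists of synaptic genes, none of them members, were read from the same fit, and 0 of their genes passed. At an unadjusted p under 0.05, 11.8% of all genes tested were higher in KO and 9.97% lower. With the GC trend removed these shares were 7.52% and 8.0%. Of 48 other vesicle, proton pump and endocytosis genes, 6 had an unadjusted p under 0.05 and a higher mean in KO and 13 a lower one (median log2 fold change -0.18), and 2 and 8 with the GC trend removed (median -0.085). Those with the smallest p were Atp6v0a1, a subunit of the pump that acidifies vesicles (26.7 ± 5.08 CPM in KO and 39.1 ± 4.12 CPM in WT; SD, n = 5 each here and below), and Ap2a1, an adaptor of clathrin (34.1 ± 6.74 CPM in KO and 51.9 ± 8.48 CPM in WT), each with an adjusted p of 0.124. Other SNARE and fusion genes had 1 higher and 4 lower of 28, and 0 and 3 with the GC trend removed, with Napa, which helps to take SNARE complexes apart, at 100.3 ± 25.1 CPM in KO and 138.4 ± 16.9 CPM in WT. Syt9, another calcium sensor of fusion, averaged 42.8 ± 3.32 CPM in KO and 51.7 ± 5.01 CPM in WT, with no overlap of the groups (beside 1.31% of all genes tested lying wholly lower). Other transsynaptic organizers had 7 higher and 6 lower of 44, and 5 and 1 with the GC trend removed. Among them the receptor phosphatase Ptprd averaged 168.9 ± 36.0 CPM in KO and 112.0 ± 8.49 CPM in WT, with no overlap of the groups (beside 1.04% of all genes tested lying wholly higher). The adhesion protein Lrfn1 averaged 19.3 ± 7.04 CPM in KO and 31.1 ± 2.21 CPM in WT. Other active zone genes had 4 higher and 6 lower of 28, and 4 and 3 with the GC trend removed, with the vesicle GTPase Rab27b at 3.10 ± 0.666 CPM in KO and 1.40 ± 0.888 CPM in WT and Mycbp2 at 82.5 ± 18.2 CPM in KO and 57.1 ± 10.6 CPM in WT. In turn, other postsynaptic scaffold genes had 5 higher and 2 lower of 39, and 8 and 1 with the GC trend removed, with Dlgap3 at 69.6 ± 16 CPM in KO and 103.3 ± 20.4 CPM in WT and Magi2 at 27.7 ± 5.96 CPM in KO and 19.9 ± 2.20 CPM in WT. Elsewhere in these lists the groups also did not overlap for Bin1, Ap2m1, Ap3b2, Ephb2 and Nptxr, lower in KO, and for Homer2 and Tanc2, higher in KO.

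Purkinje cells and Bergmann glia lie next to the layer. Summed Purkinje cell markers were 614.9 to 918.5 CPM in KO and 527.7 to 687.4 CPM in WT, with 6 of 13 tested markers higher and 0 lower by that same unadjusted threshold, and 632.9 CPM in KO4 and 1105.4 CPM in WT2. The defining marker Calb1 averaged 137.5 ± 44.8 CPM in KO and 90.1 ± 14.8 CPM in WT (SD, n = 5 each), and Pcp2 averaged 19.0 ± 3.83 CPM in KO and 16.7 ± 4.06 CPM in WT. Markers of Bergmann glia and astrocytes summed to 1150.8 to 1598.8 CPM in KO and 882.0 to 1337.7 CPM in WT, with 5 of 14 higher and 0 lower by the same threshold, and 1228.8 CPM in KO4 and 2359.5 CPM in WT2. Fabp7 made up a large part of these sums, at 688.3 ± 140.1 CPM in KO and 513.3 ± 107.7 CPM in WT. Gfap, Apoe, Aldh1l1 and Hopx had negative log2 fold changes, from -0.476 to -0.059, and the other markers of the list had positive ones. Markers of GABAergic interneurons had 4 of 11 higher and 1, Slc32a1, lower. Mature granule neuron markers summed to 174.0 to 288.2 CPM in KO and 159.5 to 245.0 CPM in WT, with 3 of 8 higher (Etv1, Kcnd2 and Tiam1) and 0 lower. The other tested markers of that list, Fat2, Neurod2, Calb2, Slc17a7 and Chn2, had negative log2 fold changes, from -0.224 to -0.087. The median of the list was -0.109. The ranges of the sums overlapped for each of these lists. With the GC trend removed, 5 of 13 Purkinje cell, 2 of 14 glial, 4 of 11 interneuron and 2 of 8 mature granule neuron markers were higher, and 0, 0, 1 and 0 were lower. Over all genes tested, 11.8% were higher and 9.97% lower in the main fit, and 7.52% and 8.0% with the GC trend removed. In RNA of a whole layer, fewer cells of a type and less RNA per cell cannot be told apart, and the part of these other cells in the synaptic gene values was not tested.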

How the data were processed

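Whole-number counts per gene were made by the authors with cutadapt 1.16, STAR 2.5.3a and HTSeq 0.6.1 on mm10, per the submitters' processing notes, and deposited without normalization. For settings, annotation release and strand setting: not given in the sources used here. Between 64.4% and 67.6% of records were alignments to several places. Of 53379 identifiers, 53274 were matched to symbols in GENCODE M21 (GRCm38). The 5 summary rows per table were left out.

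Genes passing filterByExpr (minimum count 10) were compared with TMM factors by edgeR's quasi-likelihood test (edgeR 4.0.16, limma 3.58.1, R 4.3.3) and Benjamini-Hochberg adjustment, 5 KO against 5 WT, without KO4 and WT2. CPM values use a filter and factors taken over all 12 libraries, and intervals are 95%. Exact permutation tests used log2(CPM + 1). The GC trend was a spline (5 degrees of freedom) of log2 CPM on transcript GC in each library, entered as an offset. Alternatives were DESeq2 1.42.0, voom, other scalings and filters, a surrogate variable (sva 3.50.0), a replicate block, KO2 as WT and each library left out. Within a group the 30 pairs of libraries had a chi-square of 6.51 to 94.1 per degree of freedom, beyond sampling noise.

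On simulated counts for this comparison (13232 genes), the test recovered 40.3% of 67 genes at a fold of 1.5, 81.2% of 64 genes at a fold of 2 and 93.3% of 60 genes at a fold of 4, with 2.88% of calls false. Whether these rates hold for the deposited libraries, which differ in their trends on GC content, was not tested. Members and lists were chosen with earlier results of these data known. Values per library are given for up to 3 genes of each role with the smallest p and for chosen close relatives, and for up to 2 genes of each further list.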

Additional observations from a re-analysis of the deposited data

Results flagged for a closer look

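In 86 groups of 5 libraries of the 42 genes and Skil, 4 held a library whose gap to its nearest neighbour exceeded 0.71 of the group's range. Chance marks about 1 in 20 groups. Rims2 had 23.7 CPM in KO2, where the nearest KO library had 19.5 CPM. Cbln1 had 229.8 CPM in WT3, the lowest of its group, where the nearest WT library had 276.0 CPM. Cbln2 had 2.35 CPM in WT7, where the nearest WT library had 0.619 CPM. Cbln3 had 1.34 CPM in KO6, where the nearest KO library had 0.648 CPM.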

How the results depend on the processing

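The comparison was refitted under 26 alternatives, 22 planned and 4 added after seeing the data (all 12 libraries with the GC trend removed, WT2 or KO4 alone added, and KO5 left out with the GC trend removed). The main values were 2 genes higher and 1 lower, 0 synaptic genes passing, and, by the unadjusted threshold of 0.05, 5 with higher and 5 with lower means. DESeq2 called 242 genes higher and 228 lower, with 1 and 2 synaptic genes (Skil -0.702, now passing). No filter beyond a count of 1 gave 634 and 331, with 2 and 1 synaptic genes (Skil -0.700, passing). Library size alone left 3 synaptic genes higher at an unadjusted p under 0.05, as did voom on 12 libraries. With library size alone Stx1a, Cplx1, Syp, Sv2a, Slc32a1, Rab3a and Cbln1 were lower by that threshold. All 12 libraries gave 1 and 0 genes, with 1 and 1 synaptic genes at an unadjusted p under 0.05, Dlg4 at 0.005 and Slc17a6 at -0.149. In them 3 synaptic genes of 39 had an exact permutation p under 0.05 (beside 4.15% of all genes), and 8 in the 10 libraries (beside 15.2%). KO2 as WT gave 0 and 0 genes, with 1 and 2 synaptic genes unadjusted and Nlgn1 at -0.067. A surrogate variable gave 1 and 2 genes, 1 synaptic gene higher (Snap25) and 5 lower unadjusted (Synpr, Sv2b, Slc17a6, Bsn and Nlgn2, none of them among the main 5), Skil at -1.061 (passing), Pclo at -0.073, Nlgn1 at -0.205, Nrxn3 at -0.049, Syn1 at 0.013 and Slc17a6 at -0.327. The replicate number as a block gave 0 and 0 genes, 1 and 1 synaptic genes unadjusted and Nlgn1 at -0.039. Same-numbered libraries correlated at 0.111, -0.047 and 0.0936, and none correlated best with its own number. So few shared numbers cannot show whether the numbers pair the libraries. With the GC trend removed, 2 genes were lower, 2 synaptic genes higher and 3 lower unadjusted, Skil was -0.947 (passing) and Dlg4 0.013. With the replicate block as well, 0 and 0 genes passed, 0 and 1 synaptic genes unadjusted, with Nlgn1 at -0.212 and Slc17a6 at -0.005. All 12 libraries with the GC trend removed gave 2 genes lower, 2 and 1 synaptic genes unadjusted, Skil at -1.046 (passing), Syt1 at -0.029, Syp at 0.027, Snap47 at 0.006, Dlg4 at 0.082 and Slc17a6 at -0.170. Adding WT2 gave 1 gene higher, 1 and 1 synaptic genes unadjusted and Slc17a6 at -0.053; adding KO4 gave 1 and 0 genes and 3 synaptic genes lower unadjusted. Leaving out each library in turn gave 0 to 1662 genes higher and 0 to 1440 lower, 0 to 5 synaptic genes passing in each direction, and 2 to 7 higher and 3 to 8 lower unadjusted. The high ends come without KO5, where Skil was -0.590 (passing), the nearest to 0 of a range that reached -0.779 without WT6. Without KO5 and with the GC trend removed, 795 genes were higher and 777 lower, with 1 and 1 synaptic genes. Unadjusted, Snap25, Vamp2, Syt11, Pclo, Homer1 and Shank1 were higher and 3 synaptic genes were lower. That fit had a median of 0.133, Skil at -0.893 (passing), Dlg4 at 0.072 and Slc17a7 at 0.046. For the unadjusted threshold, the share of all genes is given here only for the main comparison, all 12 libraries and the GC trend removed. Under the other settings, changes in the synaptic counts cannot be told apart from changes across all genes. The causes were not tested. Cbln1, Cplx1, Doc2b, Homer1, Rab3a, Rims2, Shank1, Slc32a1, Snap25, Stx1a, Sv2a, Syt4 and Vamp1 kept their direction in all 26 alternatives. These fits share most of their libraries, and the share of all genes that kept their direction is not given here.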

Other observations

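Ratios between close relatives, each per kb of exon, were also read in every library, with no test. The ratio of Cplx1 to Cplx2 was 2.34 to 2.82 in the KO libraries and 2.67 to 4.08 in the WT libraries, which overlap through WT6. The ratio of Slc17a7 (VGLUT1) to Slc17a6 (VGLUT2), which increases as granule neurons mature, was 0.234 to 0.617 in KO and 0.423 to 0.764 in WT. The marked libraries stood the other way round for it, at 0.533 in KO4 and 0.163 in WT2. The transcripts have 56.55% GC for Slc17a7 and 45.24% for Slc17a6, and the part of the GC trend in these ratios was not tested. The ratio of Syn2 to Syn1 was 0.583 to 1.65 in KO and 0.690 to 1.18 in WT, with 0.64 in KO4 and 2.44 in WT2. That of Sv2b to Sv2a was 1.23 to 3.16 in KO and 1.5 to 2.09 in WT, with 1.23 in KO4 and 4.24 in WT2. The glutamate to GABA transporter ratio, Slc17a6 to Slc32a1, was 5.79 to 22.9 in KO and 3.18 to 7.98 in WT. The marked libraries stood at 7.24 in KO4 and 24.1 in WT2 for this last ratio.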
